A study of Mus musculus with 12 samples.

Results

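The cell cycle and proliferation genes described here are a named list of 38 genes that move a cell through division or hold it back. They were measured in livers of wild-type and Pparβ/δ-null mice that had been fed a control or an ethanol liquid diet. A gene was followed through the probe set that names it alone, and through the brightest such probe set where there were several; each of the genes found this way had 1. Of the 38 genes, 35 had such a probe set, out of 22180 genes on the array with one, and 31 were bright enough to be tested, among 14031 genes tested in all. In these livers 2 of the 31 genes passed the test in any comparison: Mcm6, a subunit of the helicase that unwinds DNA for replication, and Cdkn2c, an inhibitor of the G1 kinases. Over the diets both were lower in null than in wild-type livers, Cdkn2c by 1.51-fold, beside 3.98% of all tested genes called lower and 3.01% called higher, so the share of the list is near that of all genes. Mcm6 was a dim gene, tested only through its wild-type arrays, and all its null arrays lay below the signal a gene had to reach. For ethanol, no gene of the list passed the test in either genotype. In bulk liver, fewer cells of a type and less RNA per cell cannot be told apart, and the values below are changes in whole tissue.

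A cell divides by passing from G1, where D and E cyclins switch on the kinases that release E2F transcription factors, through DNA replication in S phase, to mitosis, which is driven by CDK1 with cyclins A and B. CDK inhibitors such as p21 (Cdkn1a), p27 (Cdkn1b) and p18 (Cdkn2c) brake these kinases, and GADD45 proteins answer to cellular stress. Most hepatocytes of an adult liver rest outside the cycle and re-enter it after injury or loss of tissue, so transcripts of replication and mitosis are usually scarce in whole liver.

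The 4 groups were wild-type mice on control diet, wild-type mice on ethanol diet, Pparβ/δ-null mice on control diet and Pparβ/δ-null mice on ethanol diet, with 3 arrays in each. The null mice are deficient in the nuclear receptor PPARβ/δ, encoded by Ppard, and the labels do not say how the gene was disrupted. Ppard read a log2 intensity of 7.64 to 8.01 on the wild-type arrays and 7.69 to 8.06 on the null arrays; where its probes lie relative to the disruption is unknown here, so it checks no label. All animals were males of C57BL/6 background, 8 to 10 weeks old; all had taken the control liquid diet first to get used to it, and the diets then lasted 16 weeks, with 4% (v/v) ethanol in the ethanol diet. The labels name 10 mice per group and do not say whether each array held the RNA of a separate mouse, so the p-values cover only the scatter among these samples, which may be technical. The number of arrays limits the precision: between a pair of groups a log2 change had a median standard error of 0.116.

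All 12 arrays were alike in overall signal, with median log2 intensities of 5.55 to 5.62 and pairwise correlations of 0.976 to 0.988. Hepatocyte markers were bright in these livers, with a summed log2 level of 16.24 to 16.35 on every array, and none of the 7 was called between genotypes. Markers of Kupffer cells and macrophages moved with genotype. All 8 were lower in null livers over the diets and 7 passed the test, with summed log2 levels of 11.88 to 12.58 on the wild-type arrays and 11.12 to 12.03 on the null arrays. The 6 markers of sinusoidal endothelium were also all lower in null livers over the diets, with a median log2 change of -0.30, and 1 was called. Over all tested genes 50.1% were below 0 in this comparison and 3.98% were called lower. No marker of T and NK cells, B and plasma cells, neutrophils, stellate cells, cholangiocytes or erythroid cells was called between genotypes over the diets, and 5 of 7 neutrophil markers, S100a8, S100a9 and Ly6g among them, were too dim to test. The part of the macrophage and endothelial differences in the results below was not tested.

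A gene was tested when it lay above the 40th percentile of its array, a log2 intensity of 5.61 to 5.71, on at least 3 arrays. Top2a, Bub1, Bub1b and Birc5, all of them genes of mitosis, did not reach this. Their log2 intensities ran from 3.98 (Bub1) to 5.94 (Bub1b) over the 12 arrays, and each lay above the percentile on 2 arrays at most. Ccne2 and Gadd45a were found only on probe sets that name several genes, and Ccnb1 was not matched, so these 3 genes are not analysed here. The map of all 35 genes over the 12 arrays shows how each array departed from each gene's mean.

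**Figure D1:**
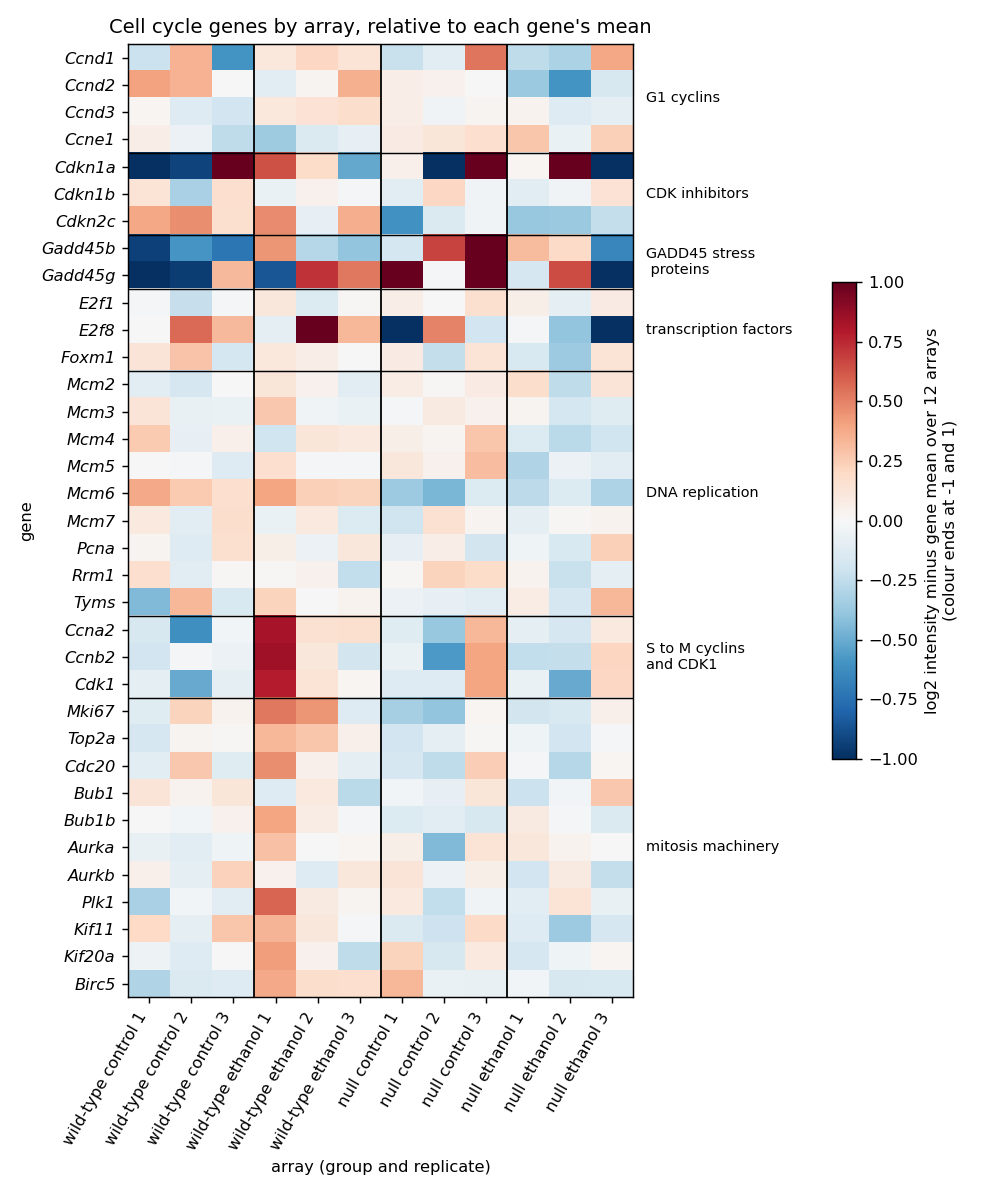
Log2 intensity of each of the 35 genes (rows, ordered by role) on each of the 12 arrays (columns, by group and replicate), as the difference from that gene's mean over all arrays; colours end at -1 and 1. Mcm6 is high on the 6 wild-type arrays and low on the 6 null arrays, wild-type ethanol 1 is the highest array for most genes of mitosis, and Cdkn1a, Gadd45b and Gadd45g vary widely inside groups.

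Changes were tested with limma, with p-values adjusted over the 14031 genes by the Benjamini-Hochberg method, and a change with an adjusted p under 0.05 is called. When the diets were averaged, 3.98% of all tested genes were called lower and 3.01% higher in null livers, and of the 31 cell cycle genes 2 were called lower, Mcm6 and Cdkn2c, and none higher. On the control diet 5.10% of all genes were called, with 1.89% called lower, and 1 of the 31, Mcm6, which was lower. On the ethanol diet 1.79% of all genes were called, with 1.33% called lower, and again 1 of the 31, Mcm6, lower. These shares are near those of all genes. The counts of all genes rested on single arrays. For the control diet 715 genes were called, but 318 without wild-type control 1, 1306 without wild-type control 2, 312 without wild-type control 3 and 193 without null control 2. For the ethanol diet 251 were called, but 111 without wild-type ethanol 2, 108 without wild-type ethanol 3, 132 without null ethanol 1 and 155 without null ethanol 2. Over the diets the count was 621 without wild-type ethanol 3 and 629 without null control 2, against 559 lower and 423 higher on all 12 arrays. The median log2 change of the 31 genes, null minus wild-type, was 0.04 on the control diet, with 12 of 31 below 0, against a median of 0.01 over all tested genes, 48.1% of which were below 0. On the ethanol diet that median was -0.20, with 26 of 31 below 0, against -0.02 and 54.5% over all genes. Wild-type ethanol 1 was the highest array for 12 of the 31 genes, so the signs are not independent.

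For ethanol, 0.0927% of all tested genes were called in wild-type livers and 0.00713% in null livers. The wild-type count, 13 genes, was not stable: leaving out wild-type control 2 made it 811, leaving out null ethanol 3 made it 20 and null ethanol 1 made it 32, and each other array left out gave 0 to 6. Of the 31 cell cycle genes limma called 0 in wild-type livers, with 4 at an unadjusted p under 0.05, all higher, beside 14.5% of all genes at that p and 7.75% at that p and higher. In null livers limma called 0, with 3 at an unadjusted p under 0.05, all lower, beside 12.2% of all genes, 8.37% in the lower direction. The median log2 change of the 31 genes, ethanol minus control, was 0.11 in wild-type livers, with 22 of 31 above 0. Over all tested genes it was -0.01, with 51.3% below 0. Wild-type ethanol 1, the highest array for 12 of the 31 genes, enters the wild-type median. In null livers the median of the 31 was -0.07, with 9 above 0, near the -0.05 of all tested genes, 61.9% of which were below 0. Averaged over the genotypes 0.0143% of all genes and 0 of the 31 were called, with 2 at an unadjusted p under 0.05, both lower, beside 12.1% of all genes, 8.32% in the lower direction. The interaction, the ethanol change in null minus that in wild-type livers, also called 0.0143% of all genes and 0 of the 31, with 5 at an unadjusted p under 0.05, all negative, beside 15.0% of all genes, 10.3% in the negative direction.

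Among the genes of DNA replication, Mcm6 read lower on every null array than on any wild-type array, at a weak signal. Mcm6 encodes one of the 6 related proteins, MCM2 to MCM7, that form the ring-shaped replicative helicase loaded on DNA in G1. Its log2 intensities were 6.18, 6.06 and 5.97 on the wild-type control arrays, 6.19, 6.04 and 6.02 on the wild-type ethanol arrays, 5.43, 5.34 and 5.67 on the null control arrays, and 5.54, 5.66 and 5.49 on the null ethanol arrays. The 6 wild-type arrays were all higher than the 6 null arrays, and within each genotype the diets overlapped. Each null array was below its own 40th percentile, so Mcm6 was tested through the group in which it was high, and the size of the change is that of intensities where dim genes lie. Averaged over the diets the log2 change, null minus wild-type, was -0.55 ± 0.07 (SE, 6 arrays against 6; limma adjusted p = 0.000626). It was -0.59 ± 0.10 on the control diet (adjusted p = 0.00722) and -0.52 ± 0.10 on the ethanol diet (adjusted p = 0.0222), and the interaction was 0.07 ± 0.15.

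In a fit of all 22180 genes with no filter on dim ones, the adjusted p of Mcm6 was 0.00164 over the diets, 0.0173 on the control diet and 0.0494 on the ethanol diet, and a filter at the 60th percentile left it untested. The fits that left out 1 array kept the filter on dim genes. Mcm6 therefore entered each of them only through its wild-type arrays, and they cannot check that selection. Over the diets the call of Mcm6 held in each of these 12 fits, with adjusted p between 0.000413 and 0.00268. On the ethanol diet alone it was lost without wild-type ethanol 1 (adjusted p = 0.0777), wild-type ethanol 2 (0.0751), wild-type ethanol 3 (0.0677), null ethanol 1 (0.0769) or null ethanol 3 (0.0626), where the log2 change was -0.46 to -0.55.

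The other 5 helicase subunits were not called. Their log2 changes over the diets, null minus wild-type, were 0.07 for Mcm2, -0.05 for Mcm3, -0.08 for Mcm4, 0.00 for Mcm5 and -0.02 for Mcm7. The 95% confidence intervals of these 5 changes ran from -0.26 at the lowest (Mcm4) to 0.25 at the highest (Mcm2). The difference between Mcm6 and the other subunits was not itself tested. Each subunit is read by its own probe set, so changes were compared and levels were not.

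The promoters of Mcm6 and of a sister subunit are shown because the E2F factors are known to switch on MCM genes at the start of S phase. Those of Cdk1 and Ccnb2, 2 genes of mitosis, are shown for contrast, since their class is known for CHR elements and CCAAT boxes. Each run gives the 200 bases before the RefSeq start of the gene in GRCm38.p6, 5′ to 3′ on the gene's strand. Capitals mark, on either strand, E2F letters (TTTCCCGC, TTTCGCGC, TTTGCCGC or TTTGGCGC), CHR letters (TTTGAA or TTCGAA) and the CCAAT box (CCAAT).
Mcm6 promoter (chr1:128359706-128359905, minus strand): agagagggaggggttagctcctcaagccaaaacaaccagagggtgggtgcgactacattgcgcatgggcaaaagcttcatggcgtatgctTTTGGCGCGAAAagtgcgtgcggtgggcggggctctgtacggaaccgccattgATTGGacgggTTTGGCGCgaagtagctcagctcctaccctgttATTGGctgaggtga
Mcm5 promoter (chr8:75109309-75109508, plus strand): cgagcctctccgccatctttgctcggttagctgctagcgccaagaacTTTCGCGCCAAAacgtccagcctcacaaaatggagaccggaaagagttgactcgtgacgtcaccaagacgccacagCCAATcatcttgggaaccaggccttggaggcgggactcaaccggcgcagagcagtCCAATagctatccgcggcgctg
Cdk1 promoter (chr10:69352913-69353112, minus strand): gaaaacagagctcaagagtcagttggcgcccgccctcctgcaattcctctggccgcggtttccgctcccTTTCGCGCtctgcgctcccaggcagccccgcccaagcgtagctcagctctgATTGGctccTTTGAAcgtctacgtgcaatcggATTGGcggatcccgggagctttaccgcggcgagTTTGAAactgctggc
Ccnb2 promoter (chr9:70421555-70421754, minus strand): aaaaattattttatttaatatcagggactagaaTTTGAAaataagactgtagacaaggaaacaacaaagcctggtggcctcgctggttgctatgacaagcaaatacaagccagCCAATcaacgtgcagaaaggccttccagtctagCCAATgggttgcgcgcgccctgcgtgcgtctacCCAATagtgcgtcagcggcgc
The Mcm6 run held 3 E2F matches, at 110, 106 and 47 bases before the start, of which the first 2 overlap and lie on opposite strands, and 2 CCAAT boxes. The Mcm5 run held 2 overlapping E2F matches and 2 CCAAT boxes. Whether these letters bear on the changes between genotypes was not tested. The Cdk1 run held 1 E2F match, 2 CHR matches and 2 CCAAT boxes, and the Ccnb2 run 1 CHR match and 3 CCAAT boxes. None of the letters was found in either of the 2 windows of Cdkn2c, the other gene called.

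RefSeq windows were at hand for 30 of the 38 genes, 28 of them on the array. Over the 250 bases before the start, 4 of the 28 held an E2F match (Cdk1, Mcm5, Mcm6 and Mcm7), against 2.16% of 27025 genes in the table. No E2F match lay in the windows of Mcm2 and Mcm3. CHR letters were in 10 of the 28, against 19.6% of genes, and a CCAAT box in 22, against 37.5%. These matches describe the letters in a window and show neither binding nor a cause of the values above.

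No other replication gene on the list was called in any comparison. Pcna, the sliding clamp of the DNA polymerases, had log2 intensities from 9.29 to 9.71 over the 12 arrays and a log2 change of -0.05 between genotypes, with a 95% confidence interval of -0.23 to 0.13. Rrm1, the large subunit of ribonucleotide reductase, changed by 0.04 between genotypes (-0.13 to 0.22), and Tyms, which makes thymidylate, by 0.00 (-0.26 to 0.26). On ethanol in null livers, the log2 change of Mcm5 was -0.31 ± 0.10 (adjusted p = 0.299) and that of Mcm4 -0.32 ± 0.12 (adjusted p = 0.347), neither of them called. For Mcm5 the null ethanol arrays read 6.00, 6.24 and 6.20, below the 6.42, 6.34 and 6.61 of the null control arrays, and the wild-type arrays read 6.17 to 6.47. The interaction for Mcm5 was -0.41 ± 0.14 (adjusted p = 0.243).

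Cdkn2c was the called gene among the CDK inhibitors. It encodes p18, which binds CDK4 and CDK6 and keeps them from the D cyclins. Per array, log2 intensities were 7.69, 7.77 and 7.47 in wild-type control livers, 7.78, 7.23 and 7.67 in wild-type ethanol livers, 6.70, 7.16 and 7.27 in null control livers, and 6.93, 6.93 and 7.07 in null ethanol livers. On each diet all null arrays were below all wild-type arrays, but across diets wild-type ethanol 2, at 7.23, lay below null control 3, at 7.27. The log2 change over the diets was -0.59 ± 0.11 (SE, 6 arrays against 6; 95% confidence interval -0.84 to -0.34; adjusted p = 0.00804). It was as large on each diet alone and missed the threshold there, at -0.60 ± 0.16 on the control diet (adjusted p = 0.051) and -0.58 ± 0.16 on the ethanol diet (adjusted p = 0.0989). Over the diets the call held in each of the 12 fits without 1 array, with adjusted p between 0.00381 and 0.0257. On the control diet Cdkn2c passed without wild-type ethanol 2 (adjusted p = 0.0376) or null control 3 (0.0476), and on the ethanol diet without null control 1 (0.0482).

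The sister inhibitors gave no call. Cdkn1b, which encodes p27, read 7.73 to 8.26 over all arrays and changed by 0.02 between genotypes, with a 95% confidence interval of -0.18 to 0.22. Cdkn1a, which encodes the p53-induced inhibitor p21, could not be compared with any precision. The log2 intensities of Cdkn1a were 6.84, 7.27 and 10.12 in wild-type control livers, 8.83, 8.38 and 7.68 in wild-type ethanol livers, 8.25, 7.01 and 9.31 in null control livers, and 8.22, 9.90 and 6.53 in null ethanol livers. The highest and the lowest arrays of a group differed by 9.74-fold among wild-type control and by 10.3-fold among null ethanol arrays, and all groups overlapped. Its within-group SD, 1.39, was the largest of all 14031 tested genes, where the median SD was 0.14. The genotype change of Cdkn1a was 0.01 ± 0.63, so its 95% confidence interval ran from -1.35 to 1.38.

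**Figure D2:**
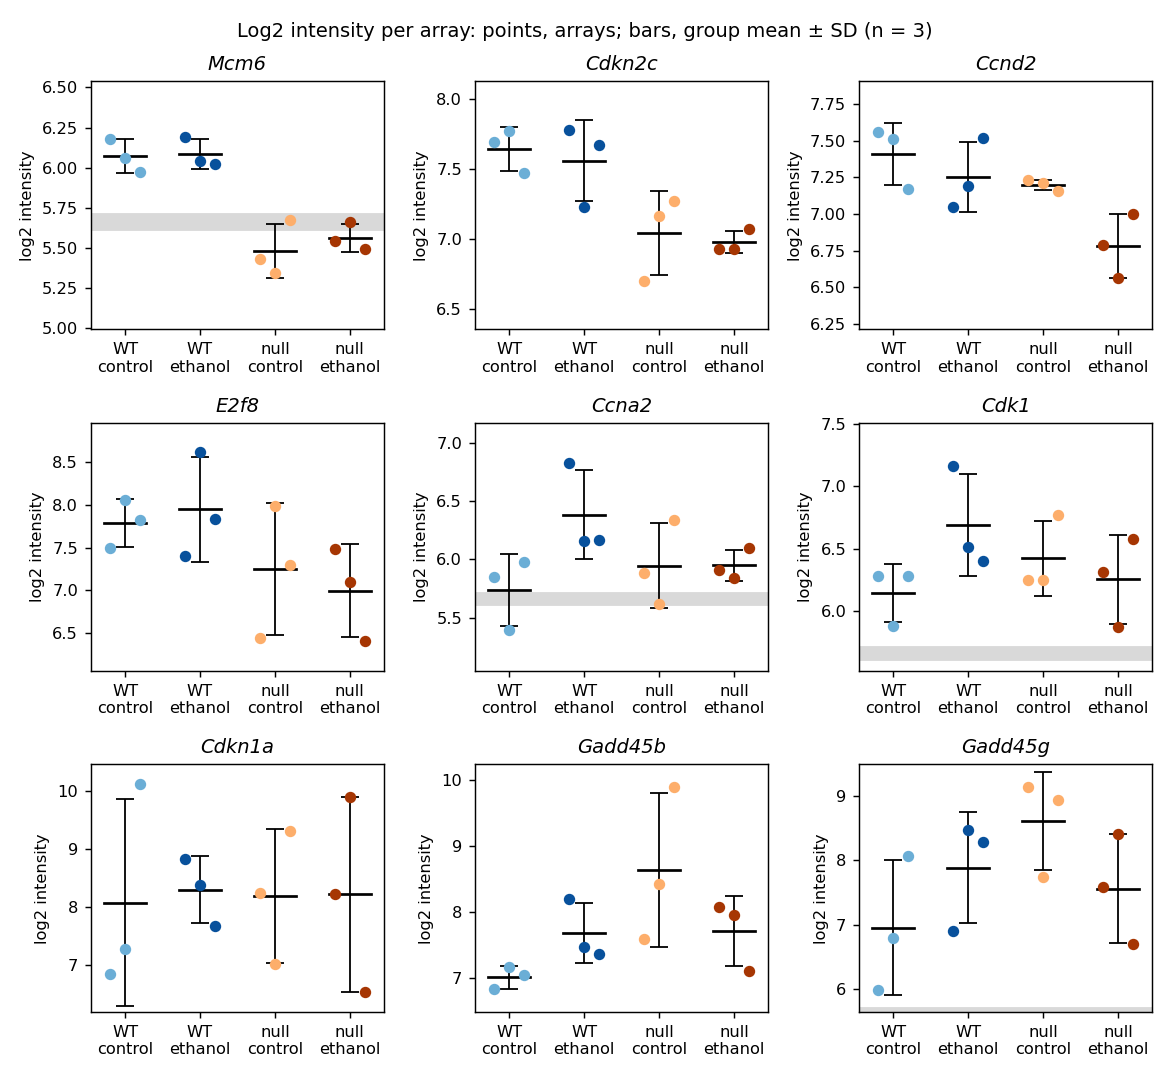
Log2 intensity of 9 genes on each array (points) by group, with the group mean and SD (bars, n = 3); the y axes differ, and the grey band, where the axis reaches it, is the 40th percentile of the arrays, 5.61 to 5.71. The null arrays of Mcm6 are in or below the band and all wild-type arrays above it, while the points of Cdkn1a spread over the whole axis in the same groups.

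Gadd45b and Gadd45g, stress-induced proteins that bind partners in DNA repair and MAP kinase signalling, showed the largest differences on the list, without a call. For Gadd45b the log2 intensities were 6.83, 7.17 and 7.04 in wild-type control, 8.20, 7.47 and 7.37 in wild-type ethanol, 7.59, 8.43 and 9.89 in null control and 8.08, 7.95 and 7.11 in null ethanol livers. The wild-type control arrays were the lowest group, below every null control and every wild-type ethanol array. On the control diet the null minus wild-type change was 1.62 ± 0.44, or 3.08-fold (adjusted p = 0.0529), and it was 1.0 without null control 3 (adjusted p = 0.104) and 2.15 without null control 1 (adjusted p = 0.0113, called). Without null ethanol 3 the same change of 1.62 had an adjusted p of 0.0473. On the ethanol diet the change was 0.03 ± 0.44, and the interaction was -1.59 ± 0.63 (adjusted p = 0.272).

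Gadd45g, too, had its lowest mean in wild-type control and its highest in null control livers, with a wider spread. Log2 intensities were 5.99, 6.80 and 8.07 in wild-type control, 6.90, 8.47 and 8.28 in wild-type ethanol, 9.14, 7.74 and 8.93 in null control and 7.58, 8.40 and 6.70 in null ethanol livers. Wild-type control 3, at 8.07, lay above null control 2, at 7.74, so these groups overlapped. The change on the control diet was 1.65 ± 0.57, or 3.14-fold (adjusted p = 0.111), and the interaction was -1.97 ± 0.81 (adjusted p = 0.283). The within-group SD ranked Gadd45g 16th and Gadd45b 44th from the top among the tested genes, at 0.89 and 0.68.

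**Figure D3:**
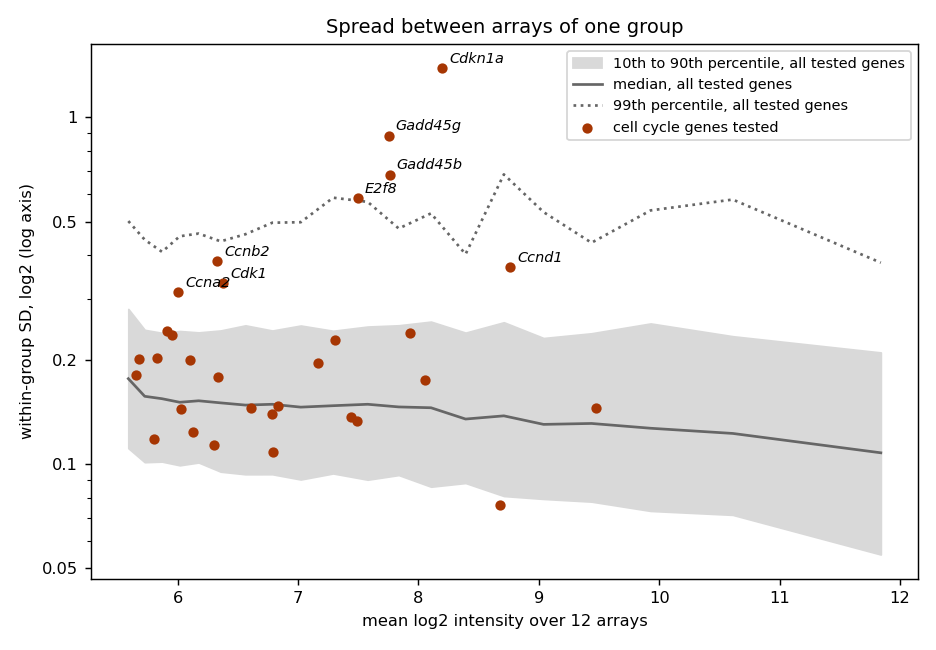
Within-group SD of log2 intensity (log axis) against mean log2 intensity for the 31 tested cell cycle genes (points), with the median, the 10th to 90th percentile band and the 99th percentile of all tested genes. Cdkn1a, Gadd45g, Gadd45b and, narrowly, E2f8 lie above the 99th percentile line, and Ccnd3, at an SD of 0.08, is the least variable gene of the list.

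Across the 12 arrays, no Pearson correlation among Cdkn1a and the GADD45 genes passed after adjustment. Of their rank correlations only that of Cdkn1a with Gadd45g passed, narrowly. In all, 6 relations were computed, with permutation p-values from 100000 resamples adjusted over the 6. For Cdkn1a with Gadd45b, Pearson's r was 0.35 (p = 0.274, adjusted p = 0.274) and Spearman's rho 0.31 (p = 0.319, adjusted p = 0.319). For Cdkn1a with Gadd45g, r was 0.58 (p = 0.0475, adjusted p = 0.0713) and rho 0.63 (p = 0.0325, adjusted p = 0.0487). For Gadd45b with Gadd45g, r was 0.46 (p = 0.127, adjusted p = 0.152) and rho 0.45 (p = 0.141, adjusted p = 0.169). Without the 2 arrays farthest from the median of the first gene, r was 0.54, 0.56 and 0.32 in that order. The permutations mixed the 4 groups, so differences between group means enter these values. For deviations from the group means r was 0.48, 0.73 and 0.03 in that order, with no p-value computed.

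Of the G1 cyclins none was called. Cyclin D2, encoded by Ccnd2, partners CDK4 and CDK6, and its gene was lowest in null livers on ethanol. Its log2 intensities were 7.56, 7.51 and 7.17 in wild-type control, 7.05, 7.19 and 7.52 in wild-type ethanol, 7.23, 7.21 and 7.16 in null control and 6.79, 6.56 and 7.0 in null ethanol livers. All 3 null ethanol arrays were below the other 9. The change over the diets was -0.34 ± 0.10 (adjusted p = 0.0638), and it passed when null ethanol 3 (0.0371), wild-type control 3 (0.034) or wild-type ethanol 1 (0.0493) was left out. On the ethanol diet it was -0.47 ± 0.14 (adjusted p = 0.128), and the ethanol change in null livers was -0.41 ± 0.14 (adjusted p = 0.331).

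Ccne1, the cyclin E1 that partners CDK2 at the entry to S phase, went the other way. Log2 intensities spanned 6.35 to 6.68 in wild-type control, 6.26 to 6.52 in wild-type ethanol, 6.69 to 6.78 in null control and 6.54 to 6.89 in null ethanol livers. The lowest null array, at 6.54, overlapped the upper wild-type arrays. The change over the diets was 0.28 ± 0.08 (adjusted p = 0.0647, and 0.0317 without null ethanol 2) and on the ethanol diet 0.35 ± 0.12 (adjusted p = 0.161).

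Ccnd1, the cyclin D1 known as a target of growth signals in liver, read 8.17 to 9.30 over the arrays with a genotype change of 0.01 ± 0.18. Ccnd3, its relative, read 8.48 to 8.85. In wild-type livers the ethanol arrays of Ccnd3 (8.78, 8.82 and 8.85) were above the control arrays (8.70, 8.54 and 8.48), a change of 0.24 ± 0.09 (adjusted p = 0.232), and in null livers the change was -0.08 ± 0.09. The interaction for Ccnd3 was -0.33 ± 0.12 (adjusted p = 0.256).

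Among the transcription factors, E2f8, an atypical E2F that represses its targets and is known in liver for polyploid hepatocytes, had the largest change and no call. The arrays read log2 intensities of 7.49, 8.06 and 7.82 in wild-type control, 7.40, 8.62 and 7.83 in wild-type ethanol, 6.44, 7.99 and 7.30 in null control and 7.48, 7.10 and 6.40 in null ethanol livers. Genotypes overlapped on each diet. The change over the diets was -0.75 ± 0.27, or 1.68-fold lower in null livers (adjusted p = 0.121). E2f1, an activating E2F, changed by 0.09 ± 0.07, and Foxm1, which drives genes of G2 and mitosis, by -0.13 ± 0.10.

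**Figure D4:**
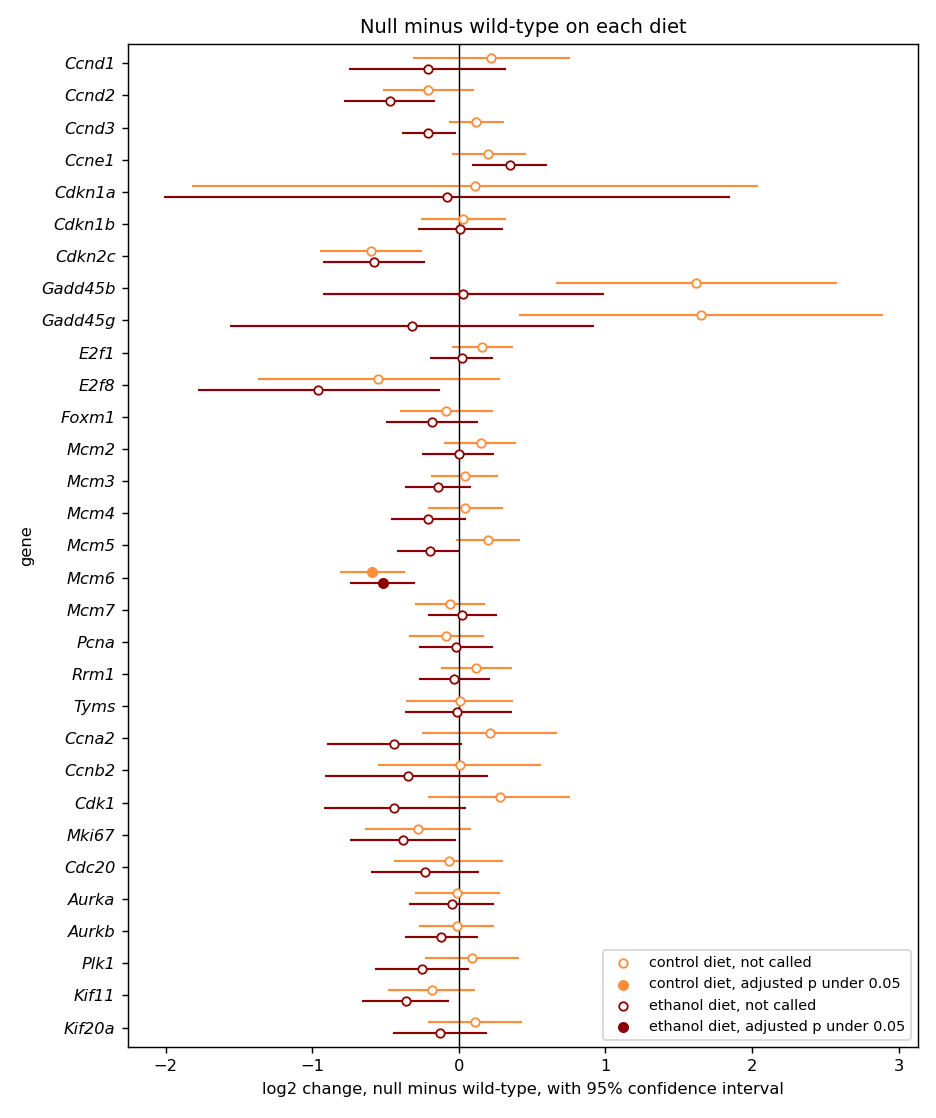
Log2 change, null minus wild-type, of the 31 tested genes on the control diet (light) and the ethanol diet (dark), with 95% confidence intervals; filled points have an adjusted p under 0.05. Mcm6 is the filled gene on both diets, at -0.59 and -0.52, and Cdkn2c has similar values, at -0.60 and -0.58, with wider intervals.

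The cyclins and the kinase of S phase to mitosis had their highest group mean in wild-type livers on ethanol, and 1 array weighed on that. Ccna2 encodes cyclin A2, the partner of CDK2 and CDK1. Its log2 intensities were 5.85, 5.39 and 5.98 in wild-type control, 6.83, 6.16 and 6.17 in wild-type ethanol, 5.88, 5.62 and 6.34 in null control and 5.91, 5.84 and 6.10 in null ethanol livers. In wild-type livers the ethanol arrays were above the control arrays, and in null livers the diets overlapped. The ethanol change was 0.65 ± 0.21 in wild-type livers (95% confidence interval 0.19 to 1.11; adjusted p = 0.201) and 0.00 ± 0.21 in null livers, with an interaction of -0.65 ± 0.30 (adjusted p = 0.337).

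Cdk1, the kinase that starts mitosis, read 6.28, 5.88 and 6.28 in wild-type control, 7.16, 6.51 and 6.40 in wild-type ethanol, 6.25, 6.25 and 6.77 in null control and 6.31, 5.87 and 6.58 in null ethanol livers. Its ethanol change was 0.55 ± 0.22 in wild-type livers (adjusted p = 0.29) and -0.17 ± 0.22 in null livers, with an interaction of -0.71 ± 0.32 (adjusted p = 0.312). Ccnb2, which encodes cyclin B2, read 6.14, 6.31 and 6.27 in wild-type control and 7.17, 6.44 and 6.15 in wild-type ethanol livers, so these groups overlapped. Its null arrays read 5.75 to 6.73, and its ethanol change in wild-type livers was 0.35 ± 0.26 (adjusted p = 0.562).

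These genes moved together from array to array. Over the 12 arrays Pearson's r between Ccna2 and Cdk1 was 0.92 (permutation p = 0.00013, adjusted p = 0.00078) and Spearman's rho 0.94 (p = 4e-05, adjusted p = 0.00024). For Ccna2 with Ccnb2, r was 0.80 (permutation p = 0.0028, adjusted p = 0.00672) and rho 0.66 (p = 0.0224, adjusted p = 0.0448). For Ccnb2 with Cdk1, r was 0.79 (permutation p = 0.00336, adjusted p = 0.00672) and rho 0.71 (p = 0.0132, adjusted p = 0.0397). Without the 2 arrays farthest from the median of the first gene, r was 0.76, 0.87 and 0.69 in that order, and without wild-type ethanol 1 it was 0.84, 0.59 and 0.58. For deviations from the group means r was 0.90, 0.80 and 0.78 in the same order, with no p-value computed.

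The array of wild-type ethanol 1 was the highest of the 12 for 12 of the 14 genes of S phase to mitosis on the array, dim ones included, with a median of 0.40 above the gene means over the 14. Next came null control 3, at a median of 0.11, and the lowest was null control 2, at -0.18. Over the 10 tested genes these medians were 0.50, 0.16 and -0.25. The exceptions were Aurkb, highest in wild-type control 3, and the dim Bub1, highest in null ethanol 3. Without wild-type ethanol 1 the ethanol change in wild-type livers was 0.43 for Ccna2 (adjusted p = 0.386), 0.31 for Cdk1 (adjusted p = 0.546) and 0.21 for Plk1 (adjusted p = 0.5). The summed macrophage level of that array, 12.23, lay inside the range of the other wild-type arrays. Whether cell content bears on the pattern of that array was not tested.

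The genes of the mitotic machinery gave no call. Mki67, whose product Ki-67 marks cycling cells, read 5.83, 6.17 and 5.99 in wild-type control, 6.48, 6.39 and 5.83 in wild-type ethanol, 5.62, 5.56 and 5.97 in null control and 5.76, 5.80 and 6.00 in null ethanol livers. Genotypes overlapped on each diet, and its change over the diets was -0.33 ± 0.12 (adjusted p = 0.121). Kif11, a motor that separates the spindle poles, changed by -0.27 ± 0.10 (adjusted p = 0.113), with only 5 arrays above the 40th percentile. Of the null arrays only null control 3 was among these, so Kif11 was tested mainly through wild-type arrays, the group in which it was high.

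Plk1, a kinase of mitotic entry and spindle assembly, read 5.50, 5.80 and 5.72 in wild-type control and 6.41, 5.92 and 5.85 in wild-type ethanol livers, where its ethanol change was 0.39 ± 0.15 (adjusted p = 0.262). All 3 ethanol arrays were above the control arrays. Cdc20, which activates the anaphase-promoting complex, Aurka and Aurkb, kinases of the spindle and of chromosome attachment, and Kif20a, a motor of cytokinesis, read 5.43 to 6.62 over all arrays and were not called in any comparison. All 7 tested genes of this class were below 0 for null minus wild-type on the ethanol diet, with a median log2 change of -0.23. Over all tested genes that median was -0.02, with 54.5% below 0. Wild-type ethanol 1 was the highest array for each of the 7 genes of the class except Aurkb, so the 7 signs are not independent. On the control diet 5 of 7 were below 0, with a median of -0.01, against 0.01 and 48.1% over all tested genes. The wild-type ethanol arrays enter both the genotype comparison on the ethanol diet and the ethanol change in wild-type livers. These comparisons are therefore not independent of each other.

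**Figure D5:**
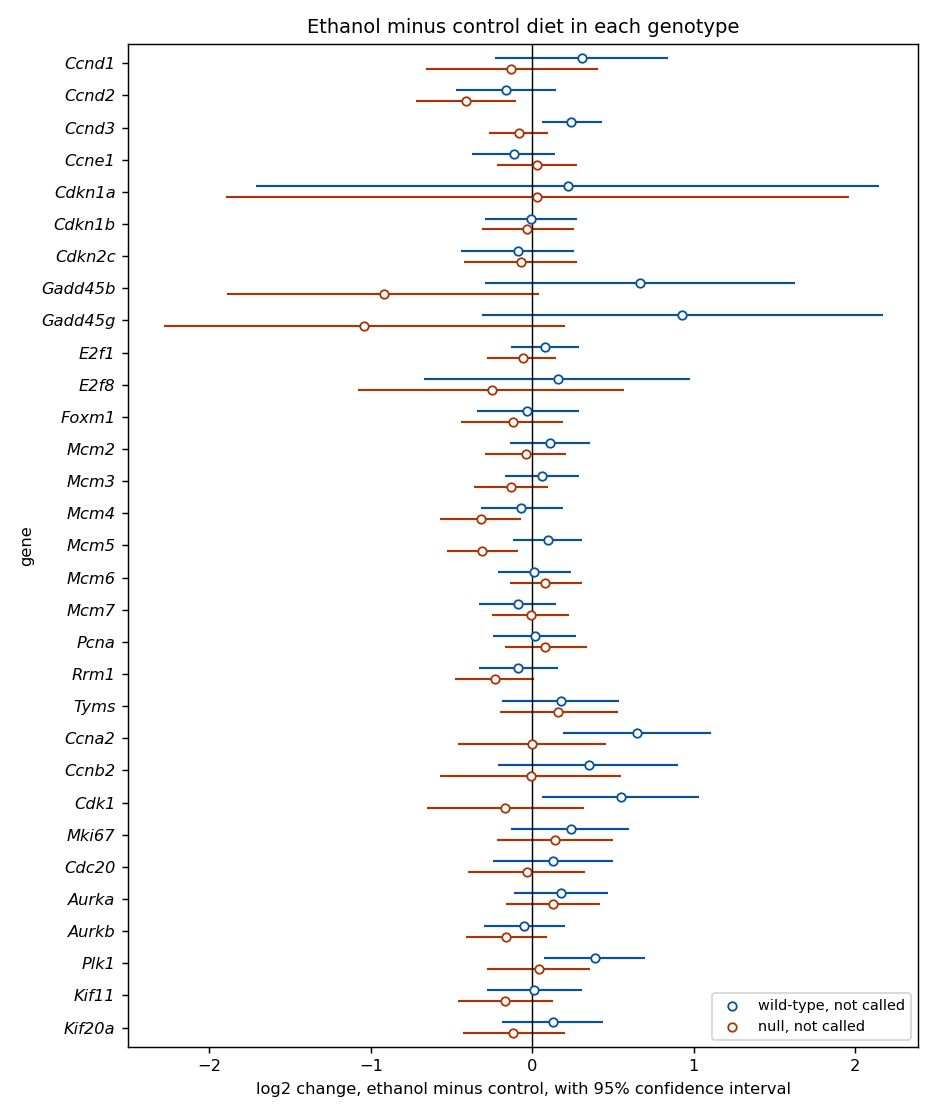
Log2 change, ethanol minus control, of the 31 tested genes in wild-type (blue) and null (brown) livers, with 95% confidence intervals; no gene had an adjusted p under 0.05. Ccna2 and Cdk1 sit at 0.65 and 0.55 in wild-type livers and at 0.00 and -0.17 in null livers, with intervals that overlap. Overlap of intervals is no test of the difference, and the interaction was called for neither gene.

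Other genes of the same pathways were read from 4 lists. The lists were chosen with earlier results of these data known, so their counts of calls beside the shares of all genes test nothing about the lists. Of 35 other mitosis genes 16 were bright enough to test, and over the diets 3 were called lower and 0 higher in null livers, beside 3.98% and 3.01% of all tested genes. Pttg1, which encodes securin, the inhibitor of the protease that parts sister chromatids, had log2 intensities of 7.50 to 8.15 on the 6 wild-type arrays and 5.85 to 6.65 on the 6 null arrays. The genotypes did not overlap, and the change was -1.78 ± 0.13, or 3.44-fold lower in null livers (adjusted p = 3.63e-06), called in each of the 12 fits without 1 array. Cks2, a small subunit of CDK complexes, changed by -0.38 ± 0.08 over the diets (adjusted p = 0.0156) and by -0.68 ± 0.12 on the ethanol diet (adjusted p = 0.00874), against -0.07 ± 0.12 on the control diet, with overlap across diets. Ect2, which acts in cytokinesis, changed by -0.48 ± 0.13 (adjusted p = 0.04), and that call was lost in 8 of the 12 fits without 1 array, with adjusted p between 0.0088 and 0.0946. The median over the 16 was -0.07, against 0.00 over all genes.

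Of 39 other replication genes 31 were tested, and over the diets 1 was called higher and 0 lower in null livers, a share near the 3.01% of all genes called higher. Rrm2, the small subunit of ribonucleotide reductase and partner of Rrm1, read 5.93 to 6.44 on the wild-type arrays and 6.49 to 7.25 on the null arrays. All null arrays were above all wild-type arrays, and the change was 0.70 ± 0.10, or 1.63-fold higher (adjusted p = 0.00157), against 0.04 ± 0.08 for Rrm1, and it was called in each of the 12 fits without 1 array. On the control diet Chaf1b, a subunit of the chromatin assembly factor of replication, was also called, at 0.43 ± 0.10 (adjusted p = 0.0292), a call lost in 4 of 12 fits without 1 array. Over the diets 24 of the 31 genes were above 0, with a median of 0.08, against 0.00 over all genes, 50.1% of which were below 0. The direction of Rrm2 was opposite to that of Mcm6, a gene of the same phase.

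Of 39 other cyclin, CDK, RB and E2F regulators 38 were tested. Wee1, the kinase that holds CDK1 inactive until mitosis, read 5.92 to 7.96 on the wild-type arrays and 7.0 to 9.05 on the null arrays. The genotypes overlapped, and the change over the diets was 1.33 ± 0.36, or 2.51-fold higher in null livers (adjusted p = 0.0441), with the call lost in 9 of 12 fits without 1 array (adjusted p 0.0124 to 0.0938). On the control diet E2f6, a repressor E2F, changed by -0.50 ± 0.13 (adjusted p = 0.0491), and on the ethanol diet Tob1, an antiproliferative protein, by -0.48 ± 0.11 (adjusted p = 0.0485). These calls were lost in 10 and 9 of the 12 fits without 1 array. E2f6 changed by -0.06 ± 0.13 on the ethanol diet. Tob1 went the other way on the control diet, at 0.41 ± 0.11 (adjusted p = 0.0539), and changed by -0.04 ± 0.08 over the diets. The interaction for Tob1 was -0.89 ± 0.16 (adjusted p = 0.17).

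Of 22 p53 target genes 19 were tested, and limma called 0 in any comparison. Between genotypes over the diets 1 of the 19 had an unadjusted p under 0.05, beside 21.4% of all tested genes, and for ethanol in wild-type livers 2 had, beside 14.5%. The list was read because Cdkn1a is a p53 target. Its median change over the diets was 0.01, between -0.31 and 0.75.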

How the data were processed

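Liver RNA of 12 samples was hybridised to Affymetrix Mouse Gene 2.0 ST arrays. The deposited intensity values, 1 per probe set and array on a linear scale, had been normalised with RMA by the authors, as the submitters' processing notes list it; the labels do not state the software, version or probe build. Log2 was taken here. Of 41345 probe sets, 23521 name 1 gene, and 22180 genes resulted. A gene was tested when at least 3 arrays put it above their 40th percentile.

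A single limma (3.58.1, R 4.3.3) model of 4 group means took all 12 arrays, with 7 contrasts, 8 residual and 4.95 prior degrees of freedom and Benjamini-Hochberg adjustment. The limma step was checked on simulated data with known changes between genotypes. Statistics were printed for genes called in any contrast, the 4 genes of the 38 with the smallest p per contrast, and called genes of the other lists; the gene with the largest change of a class and the array-by-array patterns were chosen after values were seen. The 38 genes and the lists were chosen with earlier results of these data known. Alternatives covered filter, probe set choice, normalisation, log offset, spread model, array weights, fitted samples, replicate block and leaving out each array.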

Additional observations from a re-analysis of the deposited data

How the results depend on the processing

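None of the 28 changes of cell cycle genes examined reversed under any alternative. The 24 changes that were not called stayed uncalled in 491 of 511 fits, and the 4 called ones stayed called in 78 of 83. On the control diet the count of called cell cycle genes, null against wild-type, rose from 1 to 2 with a filter at the 60th percentile (Cdkn2c and Gadd45b, with Mcm6 left out as too dim), with quantile normalisation, with arrays centred on the median, with eBayes with trend and robust, and with array weights, and to 3 with log2(intensity + 16); without 1 array it was 1 to 2. On the ethanol diet the count of 1 became 0 with the 60th percentile filter and 3 with array weights (Ccnd2, Cdkn2c and Mcm6), and 0 to 2 without 1 array. Over the diets the count of 2 became 1 with the 60th percentile filter, which left Mcm6 untested, and 5 with array weights (Ccnd2, Cdkn2c, Gadd45b, Kif11 and Mcm6). The counts of 0 for both ethanol comparisons, their average and the interaction stayed at 0 in all alternatives, although array weights raised the number of all genes called for ethanol in wild-type livers from 13 to 832. Apart from the filter, the cause of these moves was not tested. The replicate numbers of the labels did not pair the arrays: over 18 pairs with the same number the correlation of deviations was -0.15 to 0.19, and 2 pairs were over 0.1. With the replicate block the counts were 1 on the control diet, 1 on the ethanol diet, 2 over the diets and 0 elsewhere. Of the other cell cycle genes, 13 calls were refitted, and 60 of 276 fits lost the call. Signals near the 40th percentile limit what could be seen of mitosis genes.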

Other observations

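Of the 20 tested genes nearest to Mcm6 on chromosome 1, 10 on each side, 3 were called between genotypes over the diets. Ubxn4, next to Mcm6, changed by -0.27 ± 0.06 (limma adjusted p = 0.0222), with all null arrays below all wild-type arrays. Acmsd, an enzyme of tryptophan breakdown, changed by -0.64 ± 0.17 (adjusted p = 0.0374) and Tmem163 by 0.37 ± 0.10 (adjusted p = 0.0446). None of the 20 genes nearest to Cdkn2c on chromosome 4 was called. Over all tested genes 3.98% were called lower and 3.01% higher in this comparison.

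Among the 4 genes too dim for the filter, Birc5, which encodes survivin, a partner of Aurora B, had the smallest p. Its log2 intensities were 5.07, 5.23 and 5.24 in wild-type control and 5.75, 5.55 and 5.54 in wild-type ethanol livers, and 5.22 to 5.71 on the null arrays. In a fit of all 22180 genes with no filter, the ethanol change in wild-type livers was 0.43 ± 0.12 (limma adjusted p = 0.24). That of Top2a, the topoisomerase that untangles chromosomes, was 0.26 ± 0.11 (adjusted p = 0.4).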
